A study of Danio rerio with 58 samples.

Results

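The genes of the DNA replication machinery were followed through the first 4 days of zebrafish development under chronic gamma irradiation. The members were 46 listed gene symbols, matched by name, on a list drawn up with earlier results of these data known, and all 46 were found in the annotation. Because rrm2 and mcm6 each carry 2 gene identifiers, the list came to 48 identifiers of the 32057 genes counted. The genes fall into 8 roles: origin recognition, licensing, helicase activation, the sliding clamp and its loader, single-stranded DNA binding, the polymerases, maturation of Okazaki fragments, and the supply of deoxynucleotides.

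Replication starts at origins that are marked by the origin recognition complex. In G1 the factors Cdc6 and Cdt1 load the Mcm2-7 helicase there, geminin prevents a repeat of that loading, and in S phase the Dbf4-Cdc7 kinase, Cdc45, Mcm10 and the GINS complex turn the loaded helicase into a moving fork at which clamp, polymerases, nuclease and ligase copy both strands. In the early vertebrate embryo these genes are abundant because nearly all cells divide, and their transcripts decline as cells leave the cycle to differentiate.

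Whole embryos or larvae of the AB strain, collected in pools of 40, were sampled at 24, 48 and 96 hours post fertilization (hpf). They had been exposed from 1 hpf onward to a caesium gamma source at 0.5, 5 or 50 mGy/h, or kept as unexposed controls of the same irradiation batch. The dose rates of 5 and 50 mGy/h were run in batch I17 for all 3 stages, while 0.5 mGy/h was run in I32 and in I10 for 24 hpf, and in I10 alone for the later stages, so that the step from 0.5 mGy/h to the higher dose rates and the change of batch cannot be told apart. In I17 there were 3 control pools per stage against 3, 2 and 3 pools at 5 mGy/h and 3, 3 and 2 pools at 50 mGy/h, for 24, 48 and 96 hpf in this order. At 0.5 mGy/h there were 3 exposed pools in each comparison, against 5 controls in I32, and against 2, 4 and 3 controls in I10 at 24, 48 and 96 hpf.

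Of 58 samples deposited, 46 were those the study kept, 7 had been set aside by the study as outliers and are left out here except where stated, and 5 belong to I10 at 24 hpf and form their own comparison. Those 5 appear in neither of the study's outlier clusterings, and whether the study screened them is not stated. Samples held between 28278920 and 49971607 counts assigned to genes, with a median of 35489525. The pools of a comparison came from 1 irradiation batch, so the p-values measure only the spread between those pools. Levels are counts scaled to library size (CPM), log2 fold changes are exposed minus control and carry their standard error, and adjusted p is from edgeR's quasi-likelihood test with Benjamini-Hochberg adjustment over all genes tested. A differentially expressed gene (DEG) was changed by 1.5-fold or more with an adjusted p below 0.01, and the wider limit of an adjusted p below 0.05 is given beside it. Counts at an unadjusted p below 0.05 and counts with a pool left out are given without the share of all genes. So are counts at an adjusted p below 0.05 by DESeq2 or under another alternative processing. Those counts therefore do not set the members apart from other genes.

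Both identifiers of a doubled symbol are reported apart. For mcm6, a subunit of the helicase ring, ENSDARG00000057683 held 1616 to 10659 counts, whereas ENSDARG00000033231 held 0 to 9 counts, was at or under 3 counts in 47 of the 51 samples used, and did not pass the filter on low counts. The other 47 identifiers passed it in every comparison of exposed with control samples. In whole-embryo RNA, fewer dividing cells and less replication RNA per cell cannot be told apart.

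In controls the members declined from stage to stage. Their levels summed to 7446 ± 1342 CPM (SD, n = 3) at 24 hpf, 3594 ± 320 CPM (n = 3) at 48 hpf and 2339 ± 203 CPM (n = 3) at 96 hpf in I17. Between 24 and 48 hpf, 46 of 47 members were DEGs with lower levels in I17 controls, where 13.3% of all genes tested were, and the member median was −1.09 on the log2 scale. In I10 controls the same step gave 41 lower DEGs, with 12.8% of all genes, and a median of −0.90. Between 48 and 96 hpf, 29 members in I17 and 36 in I10 were lower DEGs, where 20.1% and 20.7% of all genes were, with medians of −0.73 and −0.89. Left-out replicates moved the I17 counts only between 45 and 47 and between 27 and 30, and the I10 counts between 33 and 43 and between 32 and 41.

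**Figure D1:**
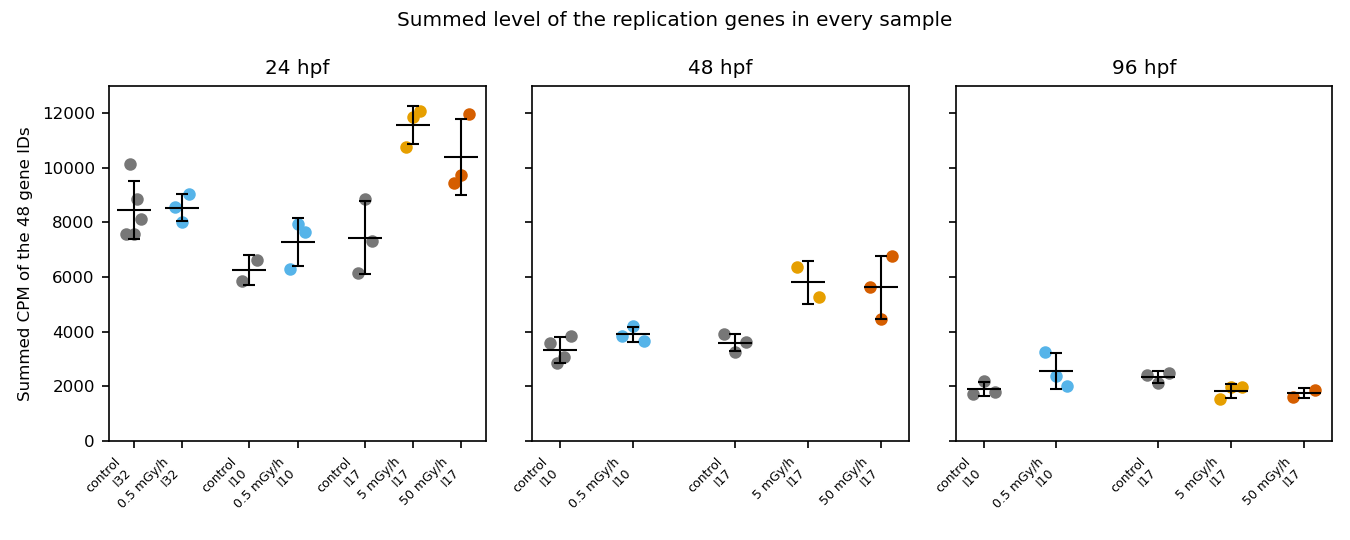
Summed level of the 48 replication gene identifiers in CPM, by stage (panels) and group (x axis). Each point is a pool, lines are group means and bars are SD. In batch I17 the exposed pools at 5 and 50 mGy/h lie above all controls at 24 and 48 hpf, with control means of 7446 and 3594 CPM, and below all controls at 96 hpf, with a control mean of 2339 CPM.

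The genes did not decline alike. Between 24 and 48 hpf the steepest member in both batches was gmnn, which encodes geminin, the inhibitor of Cdt1, with −2.23 ± 0.24 in I17 (edgeR adjusted p = 1.8e-06) and −1.97 ± 0.17 in I10. Its level in I17 controls was 9.00, 8.16 and 8.93 CPM at 24 hpf, 1.52, 2.75 and 1.34 CPM at 48 hpf, and 0.659, 0.890 and 0.464 CPM at 96 hpf. The 3 stages did not overlap for this gene.

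The smallest declines at that step were those of pold3, an accessory subunit of polymerase delta, with −0.57 ± 0.13 in I17, and of orc1, the largest subunit of the origin recognition complex, with −0.14 ± 0.29 in I10 (edgeR adjusted p = 0.70). Between 48 and 96 hpf in I17 the steepest were gins2, a subunit of GINS, at −2.04 ± 0.16, and dbf4, the activating subunit of the Cdc7 kinase, at −1.94 ± 0.19. Both belong to helicase activation, a role in which 8 of 8 members were lower DEGs (median −1.10), where 20.1% of all genes were. In licensing 2 of 9 members were lower DEGs (median −0.44), near the share of all genes, and mcm7, a helicase subunit, stood at −0.09 ± 0.23. The member nearest to no change in I17 was pole2, the second subunit of polymerase epsilon, at 0.03 ± 0.20 (edgeR adjusted p = 0.92). In I10 every tested member, pole2 among them, was lower at this step, and the smallest fall was −0.37.

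The flat course of mcm7 was not shared by both batches. In I17 controls mcm7 went from 289, 183 and 209 CPM at 48 hpf to 251, 214 and 157 CPM at 96 hpf, which overlap. In I10 controls it went from 214, 128, 132 and 192 CPM to 115, 84.9 and 118 CPM, which do not overlap. Over the 47 members the fold changes of both batches correlated with r = 0.733 between 24 and 48 hpf and r = 0.662 between 48 and 96 hpf, where all genes gave 0.860 and 0.919. These correlations run across genes, which share libraries and are not independent replicates.

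**Figure D2:**
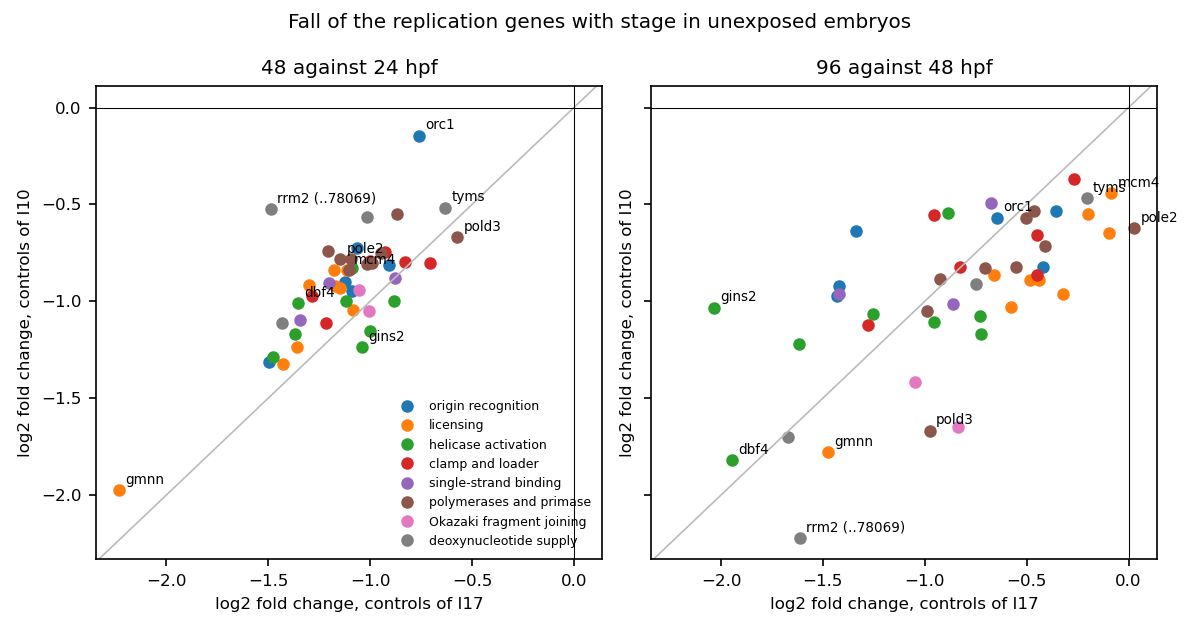
Log2 fold change of each member between stages in I17 controls (x axis) and I10 controls (y axis), for 48 against 24 hpf (left) and 96 against 48 hpf (right), coloured by role, with the diagonal of equal change. gmnn lies lowest on the left, at −2.23 and −1.97. On the x axis of the right panel pole2 lies nearest to 0, at 0.03, and the licensing genes have a median of −0.44.

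In 24 hpf embryos exposed to 5 mGy/h, 11 of 47 members were DEGs, all of them higher, where 6.68% of all genes tested were higher DEGs. At an adjusted p below 0.05, 18 members rose and 2 fell, where 13.8% of all genes rose and 11.1% fell. The member median was 0.30 against −0.06 for all genes, and 31 members had a higher and 16 a lower fitted level. The summed level was 7446 ± 1342 CPM in controls and 11582 ± 701 CPM at 5 mGy/h (SD, n = 3 each). Under 50 mGy/h it was 10384 ± 1392 CPM (n = 3), 14 members rose and 2 fell at an adjusted p below 0.05, where 11.6% and 7.91% of all genes did, and the member median was 0.33 against −0.02 for all genes. The 1 DEG at 50 mGy/h was lower, where 1.71% of all genes were lower DEGs, whereas DESeq2 called 7 higher and 2 lower members among 2140 genes of 25704.

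These counts depended on nearly every single pool. Without control replicate 3, the highest control in summed level, they rose to 16 DEGs at 5 mGy/h and 11 at 50 mGy/h. At 5 mGy/h no member was a DEG without control replicate 1 or 4 or without exposed replicate 2 or 4, and 3 were without exposed replicate 1. At 50 mGy/h no member was a DEG without control replicate 1 or 4 or exposed replicate 1 or 3, and 1 was without exposed replicate 4. Over these omissions 9 to 23 members passed an adjusted p of 0.05 at 5 mGy/h and 1 to 21 at 50 mGy/h, and the member median kept its sign, between 0.20 and 0.40 and between 0.19 and 0.36.

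Of the 8 roles, licensing had the highest median. Under 5 mGy/h 7 of 9 rose at an adjusted p below 0.05, 5 of them as DEGs, where 13.8% and 6.68% of all genes did. The licensing median was 0.76. The member with the largest fold change was mcm7, at 332, 640 and 444 CPM in controls, 888, 1190 and 1312 CPM at 5 mGy/h and 639, 738 and 1180 CPM at 50 mGy/h. All 5 mGy/h pools lay above all controls, whereas the lowest 50 mGy/h pool was just below the highest control. The fitted change was 1.26 ± 0.27 on the log2 scale at 5 mGy/h (edgeR adjusted p = 0.0056) and 0.86 ± 0.27 at 50 mGy/h (edgeR adjusted p = 0.039).

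For cdc6, the loading factor that binds the origin recognition complex, controls held 41.7, 61.4 and 53.9 CPM, the 5 mGy/h pools 83.8, 94.2 and 87.9 CPM and the 50 mGy/h pools 67.6, 76.4 and 87.9 CPM. Neither exposed group overlapped the controls. The log2 fold change was 0.76 ± 0.17 at 5 mGy/h (edgeR adjusted p = 0.0060) and 0.58 at 50 mGy/h (edgeR adjusted p = 0.028).

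Its partner cdt1, which brings the helicase to the origin, stood at 45.5, 52.0 and 46.8 CPM in controls, 70.3, 83.7 and 76.0 CPM at 5 mGy/h and 62.0, 60.9 and 81.8 CPM at 50 mGy/h. Here too every exposed pool was above every control. The log2 fold changes were 0.68 ± 0.16 (edgeR adjusted p = 0.0071) and 0.52 (edgeR adjusted p = 0.029).

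Of the other helicase subunits, mcm2 at 5 mGy/h reached 960, 1119 and 1118 CPM against 403, 683 and 536 CPM in controls (0.98 ± 0.23, edgeR adjusted p = 0.0081). For mcm5 the values were 705, 792 and 768 CPM against 356, 511 and 434 CPM (0.80 ± 0.19, edgeR adjusted p = 0.0076). Both had no overlap with controls. The exceptions among the licensing genes were mcm6 (ENSDARG00000057683), at 0.45 (edgeR adjusted p = 0.067), and gmnn, the inhibitor of the step, at −0.34 ± 0.21 (edgeR adjusted p = 0.25).

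The origin recognition complex was split. With 5 mGy/h orc2 and orc4 were DEGs, at 0.77 ± 0.18 (edgeR adjusted p = 0.0069) and 0.82 ± 0.19 (edgeR adjusted p = 0.0079), and orc1 rose by 0.68 ± 0.18 (edgeR adjusted p = 0.012). In orc2 the controls held 26.7, 41.2 and 34.6 CPM, the 5 mGy/h pools 52.9, 58.8 and 63.1 CPM and the 50 mGy/h pools 49.3, 50.7 and 62.7 CPM. The groups did not overlap. In contrast orc3, orc5 and orc6 stood at −0.15, 0.11 and −0.08. Under 50 mGy/h orc1, orc2 and orc4 again passed an adjusted p of 0.05, and orc6 had 1 pool of 55.3 CPM beside 30.01 and 27.05 CPM, with controls at 29.1, 26.6 and 27.9 CPM.

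In helicase activation 5 of 8 members had lower fitted levels at 5 mGy/h (median −0.13), and 3 of 8 at 50 mGy/h (median 0.04), with no test between roles. The kinase subunit dbf4 stood at 16.4, 11.03 and 15.1 CPM in controls, 11.5, 7.84 and 7.04 CPM at 5 mGy/h and 6.90, 7.82 and 7.69 CPM at 50 mGy/h. All 50 mGy/h pools were below all controls, and 1 pool at 5 mGy/h was just above the lowest control. It fell by 0.67 on the log2 scale at 5 mGy/h (edgeR adjusted p = 0.024) and, as the lower DEG at 50 mGy/h, by 0.90 ± 0.20 (edgeR adjusted p = 0.0080). Among the omissions above, dbf4 remained a DEG at 50 mGy/h only without control replicate 3.

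Its kinase cdc7 was level, at −0.04 and −0.09. The helicase cofactor cdc45 stood at 41.7, 31.98 and 32.8 CPM in controls and 28.2, 23.7 and 28.2 CPM at 5 mGy/h, without overlap, but missed the wider limit (−0.40 ± 0.15, edgeR adjusted p = 0.056). The 1 member of this role that rose at 5 mGy/h was mcm10, a scaffold that helps to activate the helicase, at 0.57 ± 0.16 (edgeR adjusted p = 0.016). With 50 mGy/h mcm10 stood at 0.35 (edgeR adjusted p = 0.12).

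Around the clamp, the loader subunits rfc3 and rfc4 were DEGs at 5 mGy/h, at 0.78 ± 0.18 (edgeR adjusted p = 0.0082) and 0.85 ± 0.19 (edgeR adjusted p = 0.0070). The subunits rfc1, rfc2 and rfc5 of the same loader stood at 0.14, −0.15 and −0.18. For rfc4 the controls held 72.8, 122 and 85.9 CPM, the 5 mGy/h pools 152, 173 and 180 CPM and the 50 mGy/h pools 164, 141 and 177 CPM. For rfc5 they held 61.6, 51.0 and 57.9 CPM, 49.9, 46.9 and 52.4 CPM, and 54.4, 53.1 and 50.5 CPM. The rfc4 groups were apart and the rfc5 groups overlapped, while the difference between subunits was not tested.

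The clamp itself, pcna, served the study as an endogenous control gene in its PCR assays. Its controls spread from 1378 through 1748 to 2293 CPM, below 2846, 2876 and 3009 CPM at 5 mGy/h and 2627, 2532 and 2957 CPM at 50 mGy/h. The exposed pools were all above the controls. The log2 fold change was 0.69 ± 0.22 at 5 mGy/h (edgeR adjusted p = 0.033) and 0.60 ± 0.22 at 50 mGy/h (edgeR adjusted p = 0.067).

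Among the polymerases, pole2 rose most clearly, with 29.0, 50.9 and 38.3 CPM in controls, 69.8, 84.8 and 91.3 CPM at 5 mGy/h and 54.6, 57.2 and 78.7 CPM at 50 mGy/h. No exposed pool reached down to the controls. The log2 fold change was 1.06 ± 0.21 at 5 mGy/h, with the lowest adjusted p of any member in that comparison (edgeR adjusted p = 0.0036), and 0.70 ± 0.21 at 50 mGy/h (edgeR adjusted p = 0.030). The catalytic subunit of the same enzyme, pole, stood at 0.14 and −0.23.

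Polymerase delta was divided as well. Its subunit pold2 was a DEG at 5 mGy/h (0.70 ± 0.17, edgeR adjusted p = 0.0085), whereas pold3 fell by 0.58 ± 0.18 at 5 mGy/h (edgeR adjusted p = 0.029) and by 0.73 ± 0.18 at 50 mGy/h (edgeR adjusted p = 0.013). The pold3 pools stood at 18.4, 18.1 and 21.2 CPM in controls, 15.2, 11.8 and 11.4 CPM at 5 mGy/h and 8.75, 12.4 and 13.3 CPM at 50 mGy/h. Both exposed groups lay below the controls.

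The primase-polymerase alpha subunit pola1, which starts each strand, was at −0.07 and −0.33, with a lone low pool of 60.4 CPM at 50 mGy/h beside 106 and 113 CPM and controls of 111 to 125 CPM. For pole the corresponding pool held 33.4 CPM against 56.01 to 67.2 CPM in controls. This was replicate 1 of the 50 mGy/h group, which also held the high orc6 value.

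Few members of the remaining roles passed the test at 24 hpf. In the single-stranded DNA binding complex, rpa3 rose by 0.68 ± 0.18 at 50 mGy/h (edgeR adjusted p = 0.018), and rpa1 stood at 0.24 and 0.13. The flap nuclease fen1 was at −0.12 and 0.11, and the ligase lig1 at 0.30 and 0.15. In deoxynucleotide supply the thymidylate synthase tyms passed the wider limit at 5 mGy/h at 0.44, the large subunit of ribonucleotide reductase rrm1 reached 0.59 ± 0.23 (edgeR adjusted p = 0.067), and the small subunit genes rrm2 (ENSDARG00000020711) and rrm2 (ENSDARG00000078069) stood at −0.07 and −0.10. All 3 exposed pools lay above all controls for 26 of 48 members at 5 mGy/h and 17 at 50 mGy/h, where 20.4% and 15.4% of all genes did.

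**Figure D3:**
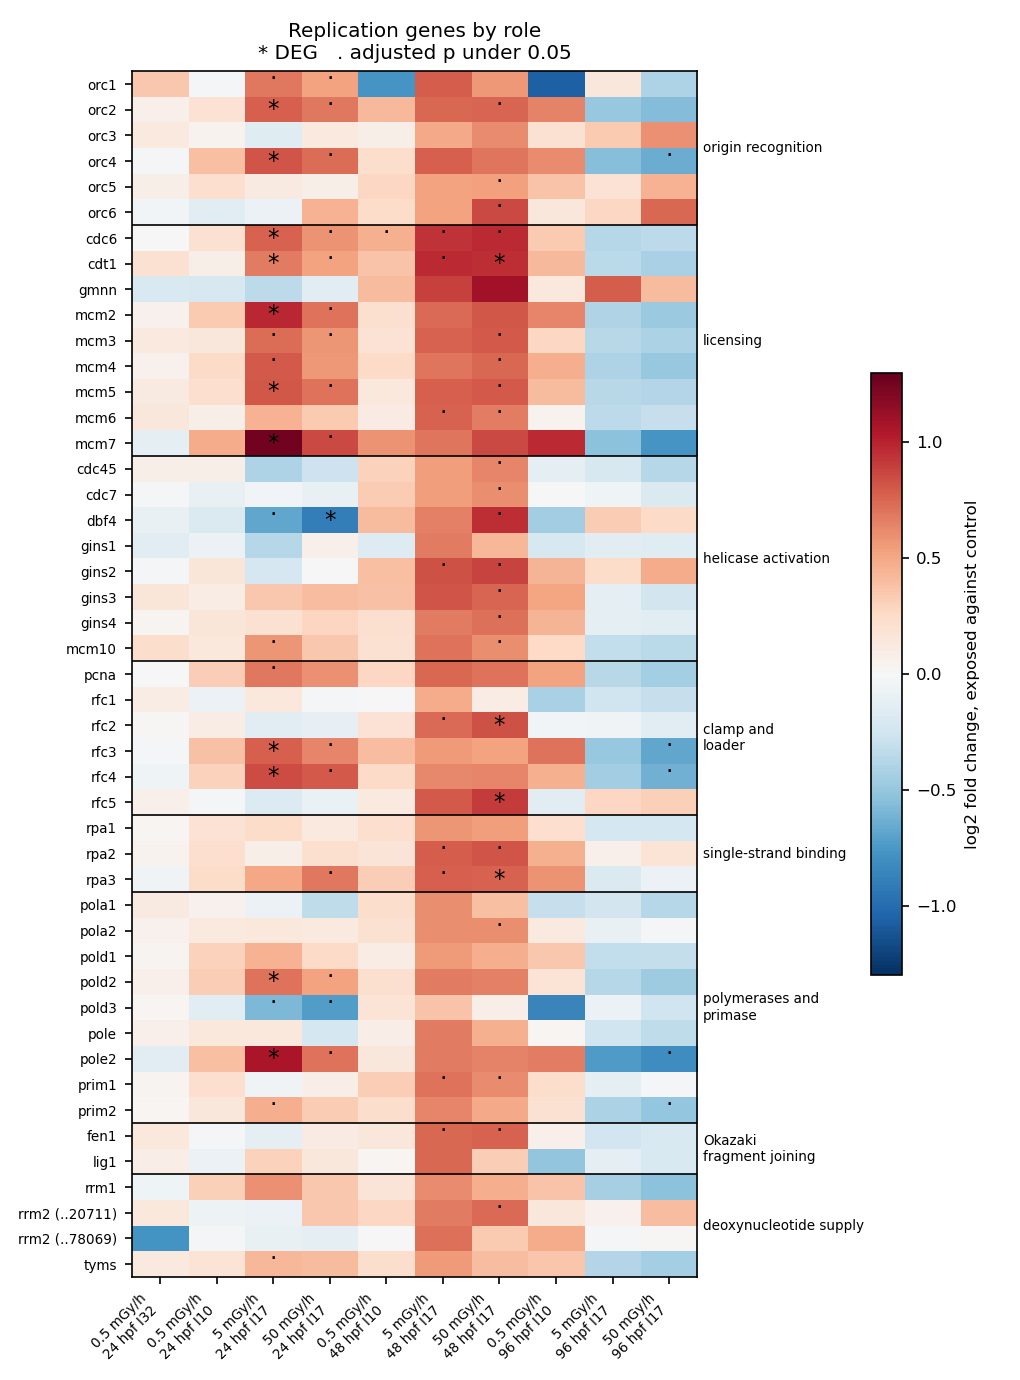
Heat map of the log2 fold change of the 47 tested members (y axis, ordered by role) in the 10 comparisons of exposed with control samples (x axis, stage, dose rate and batch). Stars are DEGs and dots have an adjusted p below 0.05. Under 5 mGy/h and 24 hpf the 11 stars lie mostly in licensing, origin recognition and the clamp loader, all 47 cells are positive at 5 and 50 mGy/h and 48 hpf, and 37 of 47 are negative at these dose rates at 96 hpf.

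In 48 hpf larvae of I17 every one of the 47 members had a higher fitted level at 5 and at 50 mGy/h. The medians were 0.69 and 0.66 in this order, against −0.02 and 0.02 for all genes tested. The summed level was 3594 ± 320 CPM in controls (SD, n = 3), 5816 ± 788 CPM at 5 mGy/h (n = 2) and 5627 ± 1147 CPM at 50 mGy/h (n = 3). At 50 mGy/h 4 members were DEGs and all were higher, where 0.757% of all genes were higher DEGs, and 24 rose at an adjusted p below 0.05, where 3.58% of all genes did. With 5 mGy/h edgeR called 0 members as DEGs, where 0.157% of all genes were DEGs in either direction, with 44 at an unadjusted p below 0.05 and 9 that rose at an adjusted p below 0.05, where 0.656% of all genes did. DESeq2 called 16 members as DEGs at 5 mGy/h and 19 at 50 mGy/h, where it called 461 and 1219 of 26059 genes.

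All exposed pools lay above all controls for 46 of 48 members at 5 mGy/h and 34 at 50 mGy/h, where 16.3% and 10.1% of all genes did. The calls rested on few pools. Under 50 mGy/h 19 members were DEGs without exposed replicate 8, 2 without exposed replicate 6, and none without exposed replicate 5 or any of control replicates 5, 7 and 8, with 1 to 33 members at an adjusted p below 0.05. At 5 mGy/h 0 to 2 members passed an adjusted p of 0.05 with any 1 pool left out, and the member median lay between 0.57 and 0.80.

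A further pool at 5 mGy/h, replicate 8, had been set aside by the study and summed to 2904 CPM, below all 3 controls. With all set-aside samples returned, the median at 5 mGy/h was 0.48, the count of DEGs at 50 mGy/h was 0, and 0 and 5 members passed an adjusted p of 0.05 at 5 and 50 mGy/h by edgeR.

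The 4 DEGs at 50 mGy/h were cdt1, rfc2, rfc5 and rpa3. Controls of cdt1 were close together at 19.4, 16.99 and 18.1 CPM, below 38.4 and 32.3 CPM at 5 mGy/h and 39.7, 31.0 and 32.9 CPM at 50 mGy/h. No pool overlapped. The log2 fold change was 0.97 ± 0.16 at 5 mGy/h (edgeR adjusted p = 0.019) and 0.96 ± 0.15 at 50 mGy/h (edgeR adjusted p = 0.0046), and among the left-out pools the call at 50 mGy/h remained without replicate 6 or 8 of the exposed group.

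Of the 3 loader subunits that had not passed the test at 24 hpf, rfc2 and rfc5 were called here and rfc1 was not. For rfc5, controls at 21.6, 23.8 and 25.8 CPM were below 40.9 and 41.1 CPM at 5 mGy/h and 41.7, 53.6 and 35.3 CPM at 50 mGy/h. For rfc2, controls at 17.5, 16.6 and 19.9 CPM were below 30.9 and 28.9 CPM and below 32.5, 34.7 and 26.8 CPM. Neither gene overlapped with controls at either dose rate. With 50 mGy/h the log2 fold changes were 0.91 ± 0.17 for rfc5 (edgeR adjusted p = 0.0099) and 0.83 ± 0.15 for rfc2 (edgeR adjusted p = 0.0089). The small subunit of replication protein A, rpa3, moved from 34.9, 35.1 and 33.2 CPM to 66.2 and 51.6 CPM at 5 mGy/h and 61.4, 54.97 and 55.9 CPM at 50 mGy/h (0.77 ± 0.14, edgeR adjusted p = 0.0093).

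At 50 mGy/h 7 of 8 helicase activation members and 6 of 9 licensing members rose at an adjusted p below 0.05, where 3.58% of all genes did, with role medians of 0.68 and 0.81. Among these members were cdc6, at 0.97 ± 0.19 (edgeR adjusted p = 0.012), dbf4, at 0.96 ± 0.27 (edgeR adjusted p = 0.048), and cdc45, at 0.64 (edgeR adjusted p = 0.038). The dbf4 pools were 5.18, 5.52 and 6.26 CPM in controls, 7.97 and 9.69 CPM at 5 mGy/h, and 12.8, 13.9 and 5.76 CPM at 50 mGy/h. Replicate 8 at 50 mGy/h thus fell within the controls for dbf4. The same pool was the highest of its group for mcm7, at 628 CPM beside 326 and 248 CPM with controls of 183 to 289 CPM, and mcm7 at 0.86 ± 0.32 did not pass (edgeR adjusted p = 0.11).

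The remaining roles had 3 of 6 origin recognition genes, 2 of 6 clamp and loader genes, 2 of 3 rpa genes, 2 of 9 polymerase genes, 1 of 2 Okazaki genes and 1 of 4 nucleotide supply genes past the wider limit at 50 mGy/h, where 3.58% of all genes rose. The member with the highest fold change, gmnn, did not pass, at 1.09 ± 0.34 (edgeR adjusted p = 0.071). Its pools held 1.52, 2.75 and 1.34 CPM in controls and 3.64, 5.53 and 2.54 CPM at 50 mGy/h, where the lowest exposed pool lay inside the control range. The lowest fold change was that of pold3, at 0.09 at 50 mGy/h (edgeR adjusted p = 0.83) and 0.37 at 5 mGy/h (edgeR adjusted p = 0.41). For pcna the values were 0.75 ± 0.27 and 0.71 ± 0.24 (edgeR adjusted p = 0.17 and 0.094), for lig1 0.75 and 0.32, and for rfc1 0.48 and 0.10.

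**Figure D4:**
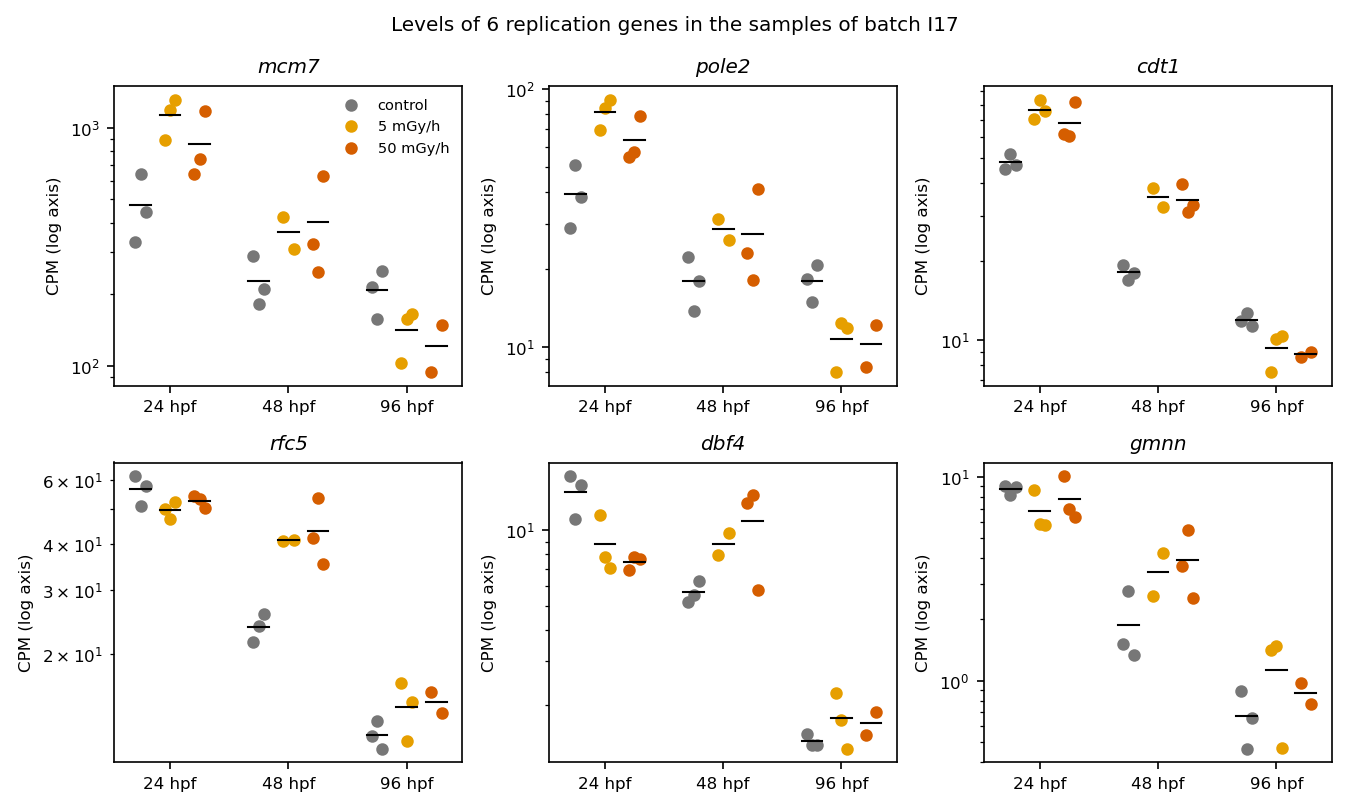
Level of 6 members in CPM on a log axis, in the I17 pools by stage and dose rate, with lines through the group means. The group means of mcm7, pole2 and cdt1 stand above controls at 24 and 48 hpf and below them at 96 hpf, rfc5 overlaps controls at 24 hpf and is above them at 48 hpf, and dbf4 is below controls at 24 hpf at 50 mGy/h (log2 fold change −0.90), with 1 pool inside their range at 5 mGy/h, and mostly above them at 48 hpf (0.96). gmnn overlaps controls at 24 hpf.

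In 96 hpf larvae the direction was the opposite for most members. At 5 and 50 mGy/h 37 of 47 had lower fitted levels, with medians of −0.24 and −0.30 against 0.02 for all genes in both comparisons. The summed level was 2339 ± 203 CPM in controls (SD, n = 3), 1818 ± 251 CPM at 5 mGy/h (n = 3) and 1743 ± 185 CPM at 50 mGy/h (n = 2). Unexposed I10 controls of this stage summed to 1905.5 ± 262 CPM (n = 3). Their range of 1723 to 2206 CPM overlapped both exposed groups of I17. The single genes were mostly short of the limits. Under 5 mGy/h edgeR called 0 members as DEGs or at an adjusted p below 0.05, where 0.275% and 1.12% of all genes were, 20 members at an unadjusted p below 0.05, and 0 DEGs but 5 members at an adjusted p below 0.05 by DESeq2. Under 50 mGy/h edgeR called 0 members as DEGs, where 0.162% of all genes were, with 26 at an unadjusted p below 0.05 and 3 as DEGs by DESeq2, which called 1131 of 26121 genes. At this dose rate 5 members fell at an adjusted p below 0.05, where 3.46% of all genes did, and these were orc4, rfc3, rfc4, prim2 and pole2.

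Without control replicate 11, 10 members fell at an adjusted p below 0.05 at 50 mGy/h and 4 at 5 mGy/h. Without any other single pool none did at 50 mGy/h, and at 5 mGy/h 1 did without exposed replicate 9. With the pool set aside by the study at 50 mGy/h returned, the median there was −0.23 and no member passed an adjusted p of 0.05 by edgeR. Both also held when that pool replaced replicate 9 of 5 mGy/h, the other reading of which pool was set aside. Replicate 9 of 5 mGy/h had the highest share of pairs mapping to several places, 25.5%, and the lowest share assigned to genes, 65.4%. The member medians with 1 pool left out lay between −0.37 and −0.26 and between −0.29 and −0.18. Every exposed pool lay below every control for 27 of 48 members at 50 mGy/h and 21 at 5 mGy/h, where 24.5% and 12.9% of all genes did.

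The 5 genes included members that had risen at 24 hpf. In pole2 the controls held 20.7, 18.4 and 14.95 CPM, the 5 mGy/h pools 11.9, 7.98 and 12.4 CPM and the 50 mGy/h pools 8.36 and 12.2 CPM. No exposed pool reached the controls. It fell by 0.80 ± 0.22 at 50 mGy/h (edgeR adjusted p = 0.046) and stood at −0.74 ± 0.19 at 5 mGy/h (edgeR adjusted p = 0.091).

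For rfc4 the controls at 38.2, 37.1 and 31.9 CPM were above 29.7, 21.7 and 26.3 CPM at 5 mGy/h and 21.3 and 24.7 CPM at 50 mGy/h. For orc4 the controls at 34.5, 33.9 and 29.7 CPM were above 23.8, 17.4 and 25.1 CPM and above 20.2 and 21.4 CPM. Both genes were without overlap. Their log2 fold changes at 50 mGy/h were −0.62 ± 0.15 and −0.64 ± 0.15 (edgeR adjusted p = 0.032 for each). The loader subunit rfc3 stood at −0.68 ± 0.16 (edgeR adjusted p = 0.033) and the primase subunit prim2 at −0.50 ± 0.12 (edgeR adjusted p = 0.030).

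By role, 8 of 9 licensing genes and 9 of 9 polymerase genes had lower fitted levels at either dose rate, with licensing medians of −0.36 and −0.41 and polymerase medians of −0.26 and −0.33. Under 50 mGy/h the lowest member after pole2 was mcm7, with 251, 214 and 157 CPM in controls, 166, 103 and 158 CPM at 5 mGy/h and 94.0 and 149 CPM at 50 mGy/h. All exposed pools but 2 at 5 mGy/h lay below the lowest control. The log2 fold changes were −0.54 ± 0.23 (edgeR adjusted p = 0.21) and −0.76 ± 0.26 (edgeR adjusted p = 0.081).

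The clamp pcna held 535, 518 and 465.9 CPM in controls, 425, 329 and 414 CPM at 5 mGy/h and 346 and 391 CPM at 50 mGy/h. Again the groups were apart, while the test gave −0.37 and −0.44 (edgeR adjusted p = 0.19 and 0.10). Members at the other end were gmnn, at 0.79 ± 0.42 at 5 mGy/h (edgeR adjusted p = 0.29), and orc6, at 0.75 ± 0.23 at 50 mGy/h (edgeR adjusted p = 0.060). The orc6 pools were 3.74, 2.58 and 4.57 CPM in controls and 6.88 and 5.21 CPM at 50 mGy/h, with no overlap.

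The fold changes at 24 and 96 hpf ran in opposite directions for most members. At 24 hpf and 96 hpf the samples of I17 shared no control, and over the 47 members the log2 fold changes of both stages correlated with r = −0.743 at 5 mGy/h and r = −0.467 at 50 mGy/h, where all genes gave −0.483 and −0.330. Higher at 24 and 48 hpf and lower at 96 hpf in fitted level were 28 members at 5 mGy/h and 30 at 50 mGy/h, whatever their test. Another 7 and 4 were lower at 24 hpf and higher at both later stages. The rest had the same direction at 24 and 96 hpf. Of these, 9 and 7 were lower at both and higher at 48 hpf, and 3 and 6 were higher at all 3 stages. Fold changes of 5 mGy/h at 96 hpf in I17 were also set against those of 0.5 mGy/h at 24 hpf. The members gave r = −0.7 with I10 and −0.0862 with I32, where all genes gave −0.335 and −0.311. These correlations are across genes that share the libraries of a comparison.

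**Figure D5:**
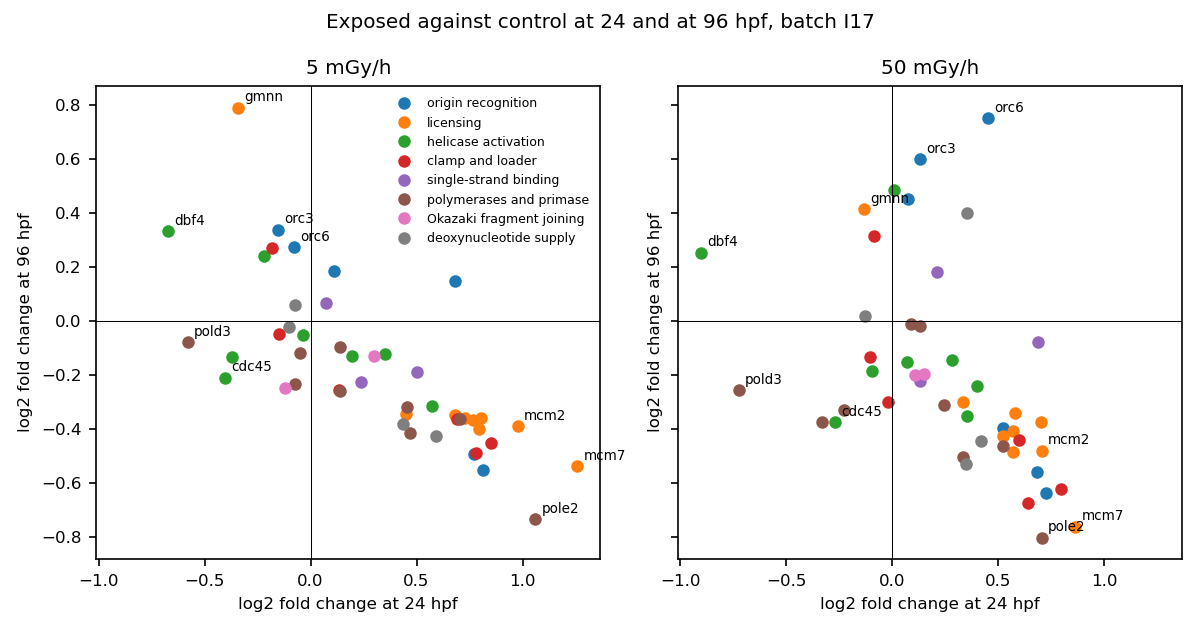
Log2 fold change of each member at 24 hpf (x axis) against 96 hpf (y axis) in I17, at 5 mGy/h (left) and 50 mGy/h (right), coloured by role. Points run from upper left to lower right, with r = −0.743 and −0.467 over 47 members, and mcm7 and pole2 sit at the lower right.

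The change of the exposure effect between stages was tested within I17. From 48 to 96 hpf the difference was below 0 for 47 of 47 members under either dose rate (medians −0.90 and −0.89). With 5 mGy/h 7 members passed the DEG limits, all lower, where 0.415% of all genes did, and 28 passed an adjusted p of 0.05, where 1.92% did. With 50 mGy/h 9 and 32 members passed, where 1.38% and 4.69% of all genes did. The factor cdt1 gave −1.34 ± 0.21 at 5 mGy/h (edgeR adjusted p = 0.00091) and −1.41 ± 0.22 at 50 mGy/h (edgeR adjusted p = 0.00040), and cdc6 gave −1.33 ± 0.25 (edgeR adjusted p = 0.0042) and −1.34 ± 0.26 (edgeR adjusted p = 0.0024). The subunit orc2 gave −1.27 ± 0.26 and −1.34 ± 0.26, and the differences farthest from 0 were those of pole2, at −1.43, at 5 mGy/h and of mcm7, at −1.65, at 50 mGy/h. With 1 pool left out the counts of DEGs ran from 0, without replicate 5 of 5 mGy/h at 48 hpf, to 9, without control replicate 11 at 96 hpf, for 5 mGy/h, and from 1, without either exposed pool at 96 hpf, to 18, without exposed replicate 6 at 48 hpf, for 50 mGy/h.

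From 24 to 48 hpf the difference was above 0 for 37 of 47 members at 5 mGy/h and 41 of 47 at 50 mGy/h. In helicase activation all 8 were above 0, and their medians were 0.76 and 0.56 for 5 and 50 mGy/h, where the licensing medians were 0.02 and 0.22, although roles were not tested against each other. At 50 mGy/h 3 members passed the DEG limits, all higher, where 0.782% of all genes did. These were dbf4, at 1.87 ± 0.34 (edgeR adjusted p = 0.0023), rfc5, at 0.99 ± 0.20 (edgeR adjusted p = 0.0055), and rfc2, at 0.94 ± 0.21 (edgeR adjusted p = 0.0096), and 7 were higher at an adjusted p below 0.05, where 2.77% of all genes were. At 5 mGy/h edgeR called 0 members as DEGs, where 0.778% of all genes were, with 18 at an unadjusted p below 0.05, 8 higher at an adjusted p below 0.05, where 1.7% of all genes were, and 5 DEGs by DESeq2, which called 488 of 27391 genes. The widest difference was again that of dbf4, at 1.32 ± 0.35 (edgeR adjusted p = 0.039). Under 50 mGy/h no member remained a DEG without replicate 5 of either group at 48 hpf, and 5 were without exposed replicate 8.

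Between 50 and 5 mGy/h no member passed the test at any stage. The medians of 50 minus 5 mGy/h were −0.09, −0.01 and −0.06 at 24, 48 and 96 hpf, edgeR called 0 members as DEGs, where at most 0.0589% of all genes were, DESeq2 also called 0 members, where 0, 2 and 27 genes were called in all, and 1, 2 and 2 members had an unadjusted p below 0.05. The extremes were orc6 at 0.53 ± 0.23 at 24 hpf, lig1 at −0.43 ± 0.17 at 48 hpf and orc1 at −0.55 ± 0.24 at 96 hpf.

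At 0.5 mGy/h no member was a DEG by edgeR in any of the 4 comparisons, where 0.0694%, 0.0104%, 0.0505% and 0% of all genes were in I32 at 24 hpf and I10 at 24, 48 and 96 hpf. Unadjusted p values below 0.05 were found for 4, 4, 19 and 11 members, with no share of all genes to set beside them. DESeq2 called 0, 0, 1 and 0 members as DEGs, where it called 112, 14, 230 and 25 genes in all. The member medians were 0.05, 0.14, 0.22 and 0.26. At 48 hpf 45 of 47 members had higher fitted levels, where 49.1% of all genes did, and 1, cdc6, rose at an adjusted p below 0.05, where 0.59% of all genes did. At 96 hpf, in contrast to the higher dose rates in I17, 36 of 47 were higher, where 47.8% of all genes were. Among them were 9 of 9 licensing genes (median 0.41). The 96 hpf member median was 0.12 without exposed replicate 10, and 0.15 with the control set aside by the study returned.

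Leaving out 1 pool changed the number at an adjusted p below 0.05. Without control replicate 5 at 48 hpf it was 11, with 1 DEG. In I10 at 24 hpf it was 9 without exposed replicate 1, at 96 hpf it was 21 without exposed replicate 9, and in I32 it was 1 without control replicate 2. The share of all genes at this limit was not taken in these refits, so the counts do not set the members apart from other genes.

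The loading factor cdc6 stood at 20.5, 17.5, 18.4 and 22.8 CPM in 48 hpf controls of I10 and 26.1, 31.2 and 24.1 CPM at 0.5 mGy/h. The exposed pools were above all controls, by 0.46 ± 0.11 on the log2 scale (edgeR adjusted p = 0.048). The highest member at all 3 stages of I10 was mcm7, at 0.48 ± 0.16, 0.58 ± 0.16 and 0.97 ± 0.27 (edgeR adjusted p = 0.44, 0.062 and 0.22). At 96 hpf it held 115, 84.9 and 118 CPM in controls and 142, 303 and 176 CPM at 0.5 mGy/h, so that replicate 10 was far above the others and no exposed pool overlapped the controls.

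The lowest member at 48 and 96 hpf was orc1, at −0.76 ± 0.24 (edgeR adjusted p = 0.096) and −1.06 ± 0.34 (edgeR adjusted p = 0.22). Its pools were 2.47, 3.46, 4.16 and 5.76 CPM in controls against 2.06, 2.72 and 2.17 CPM at 48 hpf, and 1.76, 3.32 and 2.98 CPM against 1.497, 0.756 and 1.55 CPM at 96 hpf. At 96 hpf all exposed pools were below the controls, and at 48 hpf 1 pool lay inside their range. In I17 orc1 had risen at 24 hpf at both higher dose rates.

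In I32 at 24 hpf the summed level was 8454 ± 1076 CPM in 5 controls and 8547 ± 496 CPM in 3 exposed pools. The members ranged from rrm2 (ENSDARG00000078069) at −0.78 ± 0.24 (edgeR adjusted p = 0.14) to orc1 at 0.35 ± 0.13 (edgeR adjusted p = 0.25). A small separation appeared in cdt1, with 59.4, 62.4 and 62.2 CPM above controls of 51.4 to 56.8 CPM, at 0.20 on the log2 scale. With the samples set aside by the study returned, the I32 median was −0.11 and 13 members were higher and 34 lower.

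Over members the fold changes of 0.5 mGy/h at 24 hpf in I10 correlated with those of 5 mGy/h in I17, which shares no sample with them, at r = 0.776, where all genes gave 0.319. With 50 mGy/h in I17 the value was 0.685, where all genes gave 0.174. The I32 comparison gave 0.158 with 5 mGy/h in I17, where all genes gave 0.438. The 47 points share their libraries within each comparison, and 2 control pools were behind the I10 values.

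Controls of different batches differed in some members at the same stage. At 24 hpf the DEG was rrm2 (ENSDARG00000078069), where 9.91% of all genes were DEGs between I17 and I10 and 7.85% between I17 and I32. This gene for the small subunit of ribonucleotide reductase held 88.2, 90.2 and 90.4 CPM in I17 controls, 41.8 and 47.1 CPM in I10 controls and 31.8 to 57.3 CPM in I32 controls. The I17 controls stood apart from both, by 1.05 ± 0.19 (edgeR adjusted p = 0.00082) and 1.17 ± 0.14 (edgeR adjusted p = 1.4e-05). Without I10 control replicate 2 no member was a DEG between I17 and I10.

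At 48 hpf 3 members were DEGs between I17 and I10 controls, where 13.7% of all genes were, and at 96 hpf 8, where 18.5% were. At an adjusted p below 0.05, 11 members differed at 48 hpf and 25 at 96 hpf, where 35.8% and 39% of all genes did. The widest difference at 96 hpf was that of rfc5, with 10.95, 11.9 and 13.04 CPM in I17 and 26.2, 27.7 and 26.0 CPM in I10 (−1.19 ± 0.11, edgeR adjusted p = 1.3e-05). At 48 hpf rfc5 held 21.6, 23.8 and 25.8 CPM in I17 controls and 39.5, 35.1, 37.8 and 44.6 CPM in I10 controls (−0.77 ± 0.11, edgeR adjusted p = 0.00031). The I10 controls of rfc5 at 48 hpf were thus within or near the range of the I17 pools at 5 and 50 mGy/h, which was 35.3 to 53.6 CPM. In mcm7 the 96 hpf order was reversed, with I17 controls higher by 0.94 ± 0.17 (edgeR adjusted p = 0.0011).

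Other replication genes, a second list outside the 46, had smaller medians at 24 and 48 hpf. At 24 hpf 26 of 42 had higher and 16 lower fitted levels under 5 as under 50 mGy/h, with 5 and 1 higher DEGs, where 6.68% and 4.17% of all genes were, and medians of 0.16 and 0.10. At 48 hpf 40 and 41 of 42 were higher (medians 0.59 and 0.54), with 0 and 5 DEGs by edgeR, where 0.157% and 1.53% of all genes were. At an adjusted p below 0.05, 4 and 15 of this list rose, where 0.656% and 3.58% of all genes did. At 96 hpf 29 of 40 were lower at both dose rates. The histone chaperone nasp rose at 24 hpf by 0.81 ± 0.16 at 5 mGy/h (edgeR adjusted p = 0.0034) and by 0.83 at 50 mGy/h (edgeR adjusted p = 0.0037), and at 48 hpf by 0.87 at 50 mGy/h (edgeR adjusted p = 0.0095).

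Single genes of S phase entry and checkpoint were mixed in direction at 24 hpf. At 5 mGy/h 7 rose and 7 fell at an adjusted p below 0.05, where 13.8% and 11.1% of all genes did. Among those that fell was ccne2, a cyclin E that drives S phase entry, at −0.99 ± 0.22 (edgeR adjusted p = 0.0062). The cyclin-dependent kinase inhibitor cdkn1a was not among those that rose at 5 mGy/h, where it stood at −0.24 at 24 hpf and 0.49 at 48 hpf. At 50 mGy/h it reached 0.91 ± 0.27 at 24 hpf (edgeR adjusted p = 0.031) and 1.33 ± 0.31 at 48 hpf (edgeR adjusted p = 0.025). The summed level of this list in I17 lay above controls at 24 and 48 hpf. At 24 hpf it was 1565.5 to 1682 CPM in controls, 1812 to 1884 CPM at 5 mGy/h and 1761 to 1841.5 CPM at 50 mGy/h. At 48 hpf the sums were 948 to 979, 1242 to 1388.5 and 1201 to 1396 CPM in the same order. At 96 hpf they were 492 to 499, 472 to 507 and 525 to 537 CPM, while most members were lower.

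Markers of mitosis moved with the members at 48 hpf, where all 12 had higher fitted levels at 0.5, 5 and 50 mGy/h (medians 0.22, 0.68 and 0.62). At an adjusted p below 0.05, 7 of 12 rose at 50 mGy/h and 1 at 5 mGy/h, where 3.58% and 0.656% of all genes did. The summed level of these markers was 1109 to 1150 CPM in I17 controls, 1613 to 1916 CPM at 5 mGy/h and 1536 to 1613 CPM at 50 mGy/h. At 24 hpf 7 of 12 were higher and 5 lower at both dose rates, and the proliferation marker mki67 stood at −0.18 and −0.33. The 24 hpf sum was 2013 to 2250 CPM in I17 controls, below 2446 to 2692 CPM at 5 mGy/h. At 50 mGy/h it was 1916 to 2771 CPM, which overlapped controls. At 96 hpf, where most members were lower, the mitosis markers overlapped controls, with 357 to 400 CPM in controls, 337 to 383 CPM at 5 mGy/h and 355 to 365 CPM at 50 mGy/h.

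Of 11 neuron markers, 8 and 7 had lower fitted levels at 24 hpf and 10 and 10 at 48 hpf for 5 and 50 mGy/h, while 8 were higher at 96 hpf for either. Their sum in I17 was 525 to 550 CPM in 24 hpf controls, 371 to 388 CPM at 5 mGy/h and 376 to 622 CPM at 50 mGy/h, and 981 to 1159 CPM in 48 hpf controls, 725 to 746 CPM at 5 mGy/h and 537 to 760 CPM at 50 mGy/h. At 96 hpf controls held 1237 to 1282 CPM, the 5 mGy/h pools 1282 to 1321 CPM and the 50 mGy/h pools 1302 and 1305 CPM. No neuron marker was at or under 3 counts in these pools, and 5 and 3 of 11 were lower DEGs in 24 hpf embryos exposed to 5 and 50 mGy/h, where 3.21% and 1.71% of all genes were, among them elavl3 at −0.94 and −1.09 (edgeR adjusted p = 0.0026 and 0.0013). The 4 retinal progenitor markers summed to 68.4 to 78.8 CPM in 24 hpf controls of I17. They held 52.0 to 59.6 CPM at 5 mGy/h and 51.5 to 58.5 CPM at 50 mGy/h. At 48 hpf the order was reversed, with 25.7 to 28.0, 35.2 to 43.0 and 30.6 to 38.8 CPM. The 9 neural progenitor markers averaged 1308.5, 1185.6 and 1100.7 CPM at 24 hpf in the same order, and 1238.5, 1313.6 and 1174.5 CPM at 48 hpf.

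The 4 skin markers were all higher DEGs at 24 hpf at both dose rates, with a sum of 3460 to 5745 CPM in controls, 12757 to 13153 CPM at 5 mGy/h and 10240 to 13842 CPM at 50 mGy/h. Their sum lay above controls at 48 hpf too, with 4131 to 5552 CPM in controls, 5871 to 6468 CPM at 5 mGy/h and 6318 to 7317 CPM at 50 mGy/h. It lay below them at 96 hpf, with 3620 to 4215 CPM in controls, 2348 to 3290 CPM at 5 mGy/h and 2889 to 3524 CPM at 50 mGy/h. The skin sum was thus on the same side of the controls as the summed members at each stage of I17.

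The 8 skeletal muscle markers had means on the same side of the controls as the members at each stage of I17. Their sum averaged 29293 CPM in 24 hpf controls, 43670 CPM at 5 mGy/h and 36122 CPM at 50 mGy/h, with overlap. At 48 hpf it averaged 62744 CPM in controls, 66487 CPM at 5 mGy/h and 65910 CPM at 50 mGy/h, again with overlap. At 96 hpf it averaged 81675 CPM in controls, 58149 CPM at 5 mGy/h and 52754 CPM at 50 mGy/h, and in I10 it averaged 54543 CPM in controls and 82176 CPM at 0.5 mGy/h. The trypsin gene prss1, a marker of the exocrine pancreas, averaged 1913 CPM in 96 hpf controls of I17, 879 CPM at 5 mGy/h and 723 CPM at 50 mGy/h, with no overlap.

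Developmental position was read from 16529 genes outside the members and the lists of other replication, S phase and mitosis genes. The cell type markers were not taken out of these genes. The position was the percent of the change between control stages of the other batch. Pools of 24 and 48 hpf were placed on the step from 24 to 48 hpf, and 96 hpf pools on the step from 48 to 96 hpf. The position was lower in exposed than in control pools of I17 at every stage. Exposed minus control was −17.9 and −20.9 percent at 24 hpf, −29.0 and −33.1 percent at 48 hpf, and −11.0 and −14.0 percent at 96 hpf for 5 and 50 mGy/h. At 0.5 mGy/h it was −0.252 percent in I32 and 5.02, −12.5 and 6.20 percent in I10 at 24, 48 and 96 hpf. On the scale of I10 controls, the I17 controls themselves averaged 25.63, 114.4 and 108.9 percent at 24, 48 and 96 hpf. The 5 mGy/h pools averaged 7.74, 85.35 and 97.98 percent, and the 50 mGy/h pools 4.75, 81.35 and 94.93 percent. At 24 and 96 hpf the exposed means thus lay nearer to the I10 controls than the I17 controls did. At 48 hpf they did not. The part of cell composition or of developmental position in the members' differences was not tested.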

How the data were processed

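Stranded mRNA libraries of 58 pools of whole embryos or larvae were read as paired ends of 50 bases. The authors trimmed the reads, mapped them to GRCz11 with STAR and deposited raw counts of read pairs per gene, unnormalized, with Ensembl annotation and separately by strand. The column of the strand the kit marks was used, and pairs mapping to several places, 14.9% to 25.5% of pairs per sample, are in no gene count and did not enter library sizes or tests. Members were matched by lower-case symbol through an identifier table that gave a symbol for 28988 of 32057 genes. No genome of the files' build was used here, so no sequences or coordinates are given.

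Counts were fitted with edgeR 4.0.16 (R 4.3.3, limma 3.58.1), using filterByExpr, TMM scaling and the quasi-likelihood test with Benjamini-Hochberg adjustment over all genes tested, in separate fits per stage and batch for exposure, with controls, 5 and 50 mGy/h of I17 in 1 fit. Stages were compared in the controls of a batch, batches in the controls of a stage, and differences between stages in 1 fit of all I17 pools. The fold limit of 1.5 and the adjusted p limit of 0.01 are those of the study. Levels are CPM scaled by TMM over all 58 samples, computed with edgeR. They were summarised with Python 3.11.15, pandas 2.3.3 and numpy 2.4.6, and plotted with matplotlib 3.10.9. The statistics were tested on simulated data with planted changes. The lowest chi-square per gene between 2 pools of a group was 6.16 over 79 pairs, so no 2 pools agreed within sampling noise. Alternatives were DESeq2 1.42.0, edgeR with the size factors of DESeq2, all genes with any count in place of the filter, counts without regard to strand, the replicate number as a block, the set-aside samples returned, another reading of which 96 hpf pool was set aside, and each pool left out in turn.

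The members, roles and other gene lists were chosen with earlier results of these data known. Named members were fixed anchors of each role, DEGs in a comparison of exposed with control pools (the 10 with the lowest adjusted p where there were more), the highest and lowest member of each such comparison, the 3 steepest and 3 flattest of each control step, and the widest of each difference between stages or batches. Other genes were named if they were DEGs in at least 2 exposure comparisons or were cdkn1a, ccne2, mki67 or elavl3. Members outside this rule (among them orc3, orc5, cdc7, rpa3 at 24 hpf, rfc3 and prim2 at 96 hpf, and the list of 5 genes at an adjusted p below 0.05) were named after their values were seen. A planned search of promoters and proteins for motifs was not run.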

Additional observations from a re-analysis of the deposited data

Results flagged for a closer look

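In the 5 controls of I32 at 24 hpf, replicate 2 stood away from the others for 2 members. For the flap nuclease gene fen1 it held 111 CPM, where the next control held 90.0 CPM and the lowest 85.5 CPM, a gap of 0.825 of the range. For the polymerase epsilon subunit gene pole2 it held 68.97 CPM, where the next held 48.3 CPM and the lowest 40.8 CPM, a gap of 0.731 of the range. These were found among 68 sets of values, each a named member or the summed members in 1 of the 2 groups with 4 or 5 pools, and chance gives about 1 such value in 20 sets.

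The effect of exposure differed between stages in I17 by the test of the difference itself, with edgeR at an adjusted p below 0.05. From 24 to 48 hpf it did so for 8 members at 5 mGy/h, with dbf4 widest at 1.32, and for 7 at 50 mGy/h, with dbf4 widest at 1.87. From 48 to 96 hpf it did so for 28 members at 5 mGy/h, with pole2 widest at −1.43, and for 32 at 50 mGy/h, with mcm7 widest at −1.65.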

How the results depend on the processing

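No member that was a DEG in a comparison of exposed with control pools changed direction under any alternative that was run. The direction of single members was not checked in the other comparisons, nor for members that passed only the wider limit. Counts made without regard to strand and DESeq2 size factors in edgeR kept every summary count within 1.5 times its value. With DESeq2 9 members were DEGs at 50 mGy/h and 24 hpf, where 2140 of 25704 genes were. At 0.5 mGy/h and 48 hpf 1 was, where 230 of 26350 genes were. For 48 hpf larvae of 5 and 50 mGy/h 16 and 19 were, where 461 and 1219 of 26059 genes were. At 50 mGy/h and 96 hpf 3 were, where 1131 of 26121 genes were. For the differences at 5 mGy/h from 24 to 48 hpf and from 48 to 96 hpf the DESeq2 counts were 5 and 20, where 488 and 668 of 27391 genes were called. For the difference at 50 mGy/h from 48 to 96 hpf the count was 27, where 1348 genes were called. The DESeq2 median at 5 mGy/h and 24 hpf was 0.37. Without a filter on low counts, edgeR called 8 members as DEGs at 50 mGy/h and 24 hpf, where it called 1992 of 25704 genes. For 48 hpf larvae of 5 and 50 mGy/h it called 1 and 10, where it called 139 and 683 of 26059 genes. At 50 mGy/h and 96 hpf it called 4, where it called 1033 of 26121 genes. For the differences at 5 mGy/h from 24 to 48 hpf and 50 mGy/h from 48 to 96 hpf it called 1 and 16. Of all 27391 genes 258 and 702 were called there. With the set-aside samples returned, the median was −0.11 in I32, 0.48 at 5 mGy/h and 48 hpf and −0.23 at 50 mGy/h and 96 hpf, and the DEG count at 50 mGy/h and 48 hpf was 0. The other reading of the 96 hpf pool set aside gave a median of −0.23 at 50 mGy/h, and took the members there at an adjusted p below 0.05 from 5 to 0. The cause of these shifts was not tested.

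Deviations of pools with the same number correlated from −0.617 to 0.545. Some of these values were higher than with every other number and others were lower. With so few pools per group they cannot show whether the numbers pair the pools. With the replicate block the member DEG counts were 2 at 5 mGy/h and 2 at 50 mGy/h at 24 hpf, where 838 and 1176 of 18358 genes were called. At 50 mGy/h and 48 hpf the member count was 0, where 3 of 19802 genes were called. The block took the counts at an adjusted p below 0.05 from 9 to 0 and from 24 to 0 at 48 hpf for 5 and 50 mGy/h, and from 5 to 0 at 96 hpf for 50 mGy/h, and the 96 hpf median of 50 minus 5 mGy/h was −0.013.

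With each pool left out in turn, the DEG counts ranged over 0 to 16 and 0 to 11 at 24 hpf and over 0 to 0 and 0 to 19 at 48 hpf for 5 and 50 mGy/h, and over 0 to 1 for 0.5 mGy/h at 48 hpf. For the differences from 24 to 48 hpf and from 48 to 96 hpf they ranged over 0 to 9 at 5 mGy/h from 48 to 96 hpf, 0 to 5 at 50 mGy/h from 24 to 48 hpf and 1 to 18 at 50 mGy/h from 48 to 96 hpf. Between I17 and I10 controls at 96 hpf they ranged over 7 to 14. Member medians ranged over 0.20 to 0.40 and 0.19 to 0.36 at 24 hpf for 5 and 50 mGy/h, 0.57 to 0.80 at 48 hpf for 5 mGy/h, −0.29 to −0.18 and −0.37 to −0.26 at 96 hpf for 5 and 50 mGy/h, and −0.11 to 0.0080 for 50 minus 5 mGy/h at 96 hpf. In I17 controls they ranged over −1.15 to −1.02 from 24 to 48 hpf and −0.80 to −0.71 from 48 to 96 hpf, and between I17 and I10 controls over 0.098 to 0.26 at 24 hpf. The differences at 5 mGy/h had medians of 0.26 to 0.50 from 24 to 48 hpf and −1.07 to −0.80 from 48 to 96 hpf.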
